A study of Mus musculus with 2 samples.

Results

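Natural antisense genes are transcribed from the DNA strand opposite another gene, and 77 such noncoding genes were expressed in the embryonic mouse liver studied here. They were the genes that GENCODE M21 classes as antisense and that reached at least 1 TPM (transcripts scaled to a fixed sum per library, a level per length) in both libraries. Among 43346 measured genes there were 2062 antisense genes, and 78 of them, or 3.78%, passed that minimum, against 50.6% of protein-coding genes. Airn, a noncoding gene of an imprinted cluster, was the only 1 of these 78 set aside. The 77 genes were thus chosen by their TPM values, and their levels are given as a description and carry no test.

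The libraries were made from polyadenylated RNA longer than 200 nucleotides, depleted of ribosomal RNA, and read as stranded pairs, so that RNA from either strand of a locus is counted apart. There was 1 group of 2 libraries, replicates 1 and 2, from the liver of C57BL/6J embryos of 14 days, each a pool of male and female littermates. The labels number them as biological replicates, give 1 donor entry for both and do not say whether the litters were separate, so how far their spread covers differences between litters is not known. The series holds no treated, mutant or other-stage group, so the comparisons are of antisense with coding genes and of replicate 2 with replicate 1. Replicate 2 held 154601605 expected counts (estimated fragments per gene) and replicate 1 held 100477392. In this whole tissue, fewer cells that make an RNA and less RNA in each cell cannot be told apart.

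The labelled tissue was checked against marker genes. The 12 erythroid markers, red cell genes such as the globins, had a median of 380 TPM in replicate 2 and 330.3 in replicate 1, while their sum was 187535 TPM in replicate 2 and 205179 in replicate 1, where 1 gene held 145778 TPM of it. The 11 hepatocyte markers had a median of 835 TPM in replicate 2 and 737 in replicate 1. Markers of other tissues were lower in replicate 2, where the 8 skeletal muscle markers summed to 3.74 TPM against 68.4 in replicate 1, the 4 of epidermis to 0.35 against 3.28, and the 3 of pancreas to 0.80 against 2.83. The 6 stellate and mesenchymal markers summed to 119 TPM in replicate 2 and 169 in replicate 1, and the 6 granulocyte markers to 1781 TPM in replicate 2 and 1229 in replicate 1. Macrophage and endothelial sums were also higher in replicate 2. None of the 62 markers in 9 lists overlaps any of the 77 genes, and the part of these differences in the antisense values was not tested.

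An antisense RNA can start from the promoter of a neighbouring coding gene, run across that gene's end, or lie wholly inside it. Its transcription or the RNA itself is known, in single well studied cases, to lower or to aid expression of the gene opposite, while for most antisense genes no role is known. Many promoters rich in CpG dinucleotides start RNA in both directions, and fetal liver, where red cells are made among immature hepatocytes, is a mixed tissue in which such RNAs can come from any of its cell types.

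Promoter sequences are shown for the 2 antisense genes of highest level, Rab26os and Ttc39aos1, and for 3 antisense genes beside the coding gene whose start lies close by on the other strand. The windows run from 250 bases before to 50 bases after each RefSeq start on GRCm38.p6, 5′ to 3′ on the gene's own strand. Capitals mark, on either strand, the letters of the TATA box (TATAAA), the CCAAT box, the GC box (GGGCGG), the core recognised by ETS factors (CCGGAAG) and the core recognised by GATA factors (AGATAA).
Rab26os (chr17:24528001-24528300, plus strand): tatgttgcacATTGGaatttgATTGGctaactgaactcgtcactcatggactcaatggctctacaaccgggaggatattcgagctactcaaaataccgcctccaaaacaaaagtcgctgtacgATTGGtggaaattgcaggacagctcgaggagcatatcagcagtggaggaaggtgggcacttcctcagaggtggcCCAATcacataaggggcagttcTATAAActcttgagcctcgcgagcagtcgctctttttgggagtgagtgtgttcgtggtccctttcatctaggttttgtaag
Ttc39aos1 (chr4:109406208-109406507, minus strand): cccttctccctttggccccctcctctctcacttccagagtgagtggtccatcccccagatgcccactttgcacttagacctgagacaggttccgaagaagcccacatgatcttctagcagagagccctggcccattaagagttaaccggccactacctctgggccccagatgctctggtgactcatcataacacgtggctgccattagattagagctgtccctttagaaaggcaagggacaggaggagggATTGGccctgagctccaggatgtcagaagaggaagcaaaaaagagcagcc
Tug1 (chr11:3648765-3649064, minus strand): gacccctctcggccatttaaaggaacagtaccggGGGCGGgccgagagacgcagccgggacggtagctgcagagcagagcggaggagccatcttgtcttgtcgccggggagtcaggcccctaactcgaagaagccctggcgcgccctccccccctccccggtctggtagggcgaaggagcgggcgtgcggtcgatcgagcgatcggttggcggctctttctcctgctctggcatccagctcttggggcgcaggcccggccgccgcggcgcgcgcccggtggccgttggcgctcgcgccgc
Morc2a (chr11:3649187-3649486, plus strand): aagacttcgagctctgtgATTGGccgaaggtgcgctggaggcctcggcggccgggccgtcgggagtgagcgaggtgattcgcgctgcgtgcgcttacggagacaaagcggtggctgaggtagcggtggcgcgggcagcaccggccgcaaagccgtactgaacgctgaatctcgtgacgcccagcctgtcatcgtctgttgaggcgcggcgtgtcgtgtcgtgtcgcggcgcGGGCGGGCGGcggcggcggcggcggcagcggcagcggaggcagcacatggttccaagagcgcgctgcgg
Zfp335os (chr2:164911183-164911482, plus strand): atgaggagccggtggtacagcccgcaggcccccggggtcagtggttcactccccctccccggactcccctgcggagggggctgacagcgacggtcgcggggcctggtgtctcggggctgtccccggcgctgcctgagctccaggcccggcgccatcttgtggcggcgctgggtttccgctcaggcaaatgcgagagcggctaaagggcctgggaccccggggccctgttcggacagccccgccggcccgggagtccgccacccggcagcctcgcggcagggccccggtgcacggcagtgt
Zfp335 (chr2:164911701-164912000, minus strand): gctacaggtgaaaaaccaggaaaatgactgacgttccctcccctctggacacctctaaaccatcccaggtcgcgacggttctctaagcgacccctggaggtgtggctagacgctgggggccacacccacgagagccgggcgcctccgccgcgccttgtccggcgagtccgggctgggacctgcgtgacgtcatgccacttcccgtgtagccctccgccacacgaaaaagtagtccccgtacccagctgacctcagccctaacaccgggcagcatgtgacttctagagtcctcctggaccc
4933431E20Rik (chr3:107896164-107896463, minus strand): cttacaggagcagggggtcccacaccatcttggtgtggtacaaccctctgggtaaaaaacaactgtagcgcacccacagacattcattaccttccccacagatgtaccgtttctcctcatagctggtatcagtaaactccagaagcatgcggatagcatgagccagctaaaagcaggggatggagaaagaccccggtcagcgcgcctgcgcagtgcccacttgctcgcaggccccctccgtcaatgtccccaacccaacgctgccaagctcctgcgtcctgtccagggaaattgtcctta
Gstm5 (chr3:107895604-107895903, plus strand): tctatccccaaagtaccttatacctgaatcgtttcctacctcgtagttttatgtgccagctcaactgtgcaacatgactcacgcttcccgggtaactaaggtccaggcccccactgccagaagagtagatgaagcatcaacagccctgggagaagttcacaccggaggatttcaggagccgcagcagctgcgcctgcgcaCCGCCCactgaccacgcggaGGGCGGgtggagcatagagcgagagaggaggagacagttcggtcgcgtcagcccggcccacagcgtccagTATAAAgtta

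The Rab26os window holds CCAAT 4 times, counting both strands, and TATAAA 1 time, and its ratio of observed to expected CpG was 0.635. The Tug1 window has 37 CpG dinucleotides and the Morc2a window opposite it has 46, and their RefSeq starts lie 623 bases apart. The Zfp335os and Zfp335 starts lie 317 bases apart, and those of 4933431E20Rik and Gstm5 lie 359 bases apart. RefSeq and GENCODE starts of these 8 genes differed by 0 to 859 bases, most for Tug1, so the windows are those of RefSeq only. The Zfp335os, Zfp335 and 4933431E20Rik windows hold none of these letters.

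Of the 77 antisense genes, 44 had a promoter window in RefSeq. Their median ratio of observed to expected CpG was 0.694, against 0.384 over 32841 windows of all genes, and 61.4% of them against 35.8% of all windows reached 0.6. That background holds every window of 27018 genes, expressed or not, while each antisense gene gave 1 window and was chosen by level. Shares over expressed genes or other antisense genes alone were not taken. The CCAAT letters were present in 52.3% of the antisense windows and 37.4% of all windows, and GGGCGG in 54.5% of antisense windows and 35.7% of all windows. TATAAA was in 6.82% of antisense windows, which is 3 of 44, and in 13.6% of all windows. The ETS core was in 18.2% of antisense windows and 8.86% of all windows, and the GATA core in 9.09% of antisense windows and 11.2% of all windows. These are matches of letters, both strands counted, and neither the differences in share nor binding was tested.

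Spliced RNA is shown for 4 antisense genes by their most read splice junction, with the last 20 bases of one exon in lower case and the first 20 of the next in capitals. The mm9 junction was matched to a GENCODE M21 intron of the same length, and the bases come from that transcript, 5′ to 3′ on the gene's own strand, and the position of the intron removed is given on GRCm38.
Ttc39aos1 (chr4:109403994-109404079, minus strand): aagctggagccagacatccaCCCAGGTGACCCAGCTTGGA
Rab10os (chr12:3237413-3237590, plus strand): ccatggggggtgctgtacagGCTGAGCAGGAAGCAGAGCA
Asb17os (chr3:153850771-153852326, minus strand): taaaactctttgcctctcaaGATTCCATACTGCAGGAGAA
Tug1 (chr11:3645524-3646556, minus strand): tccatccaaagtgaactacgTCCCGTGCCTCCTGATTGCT

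The 77 genes were mostly of low level. They held 70871 expected counts in replicate 2 and 45459 in replicate 1. That is 0.0475% of the counts on mouse genes in replicate 2 and 0.0468% in replicate 1. Their median level was 2.67 TPM in replicate 2 and 2.44 in replicate 1. In both libraries 42 of them reached 2 TPM, 18 reached 5 TPM, 7 reached 10 TPM and 5 reached 25 TPM. Just inside the threshold stood A730011C13Rik with 1.39 TPM in replicate 2 and 1.00 in replicate 1, Gm26982 with 1.42 TPM in replicate 2 and 1.00 in replicate 1, and Gm17344 with 1.25 TPM in replicate 2 and 1.01 in replicate 1. Just outside it were 4930403D09Rik with 0.99 TPM in replicate 2 and 1.22 in replicate 1, 9330020H09Rik with 0.97 TPM in replicate 2 and 0.91 in replicate 1, and Gm10138 with 0.90 TPM in replicate 2 and 0.95 in replicate 1.

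Rab26os was the most abundant, with 58.9 TPM in replicate 2 and 67.9 in replicate 1, or 63.4 ± 6.36 TPM (SD, n = 2). It is a 2-exon gene of 497 bases on mm10 (chr17:24528248-24528744, plus strand) inside Rab26, which encodes a small GTPase of secretory vesicles. Ttc39aos1 followed with 52.8 TPM in replicate 2 and 47.4 in replicate 1 (chr4:109403794-109406155, minus strand, 4 exons). Gm16538 had 29.9 TPM in replicate 2 and 30.0 in replicate 1, and Asb17os had 26.0 TPM in replicate 2 and 27.7 in replicate 1. Gt(ROSA)26Sor, the noncoding gene of the Rosa26 locus into which transgenes are often inserted, had 26.1 TPM in replicate 2 and 25.6 in replicate 1. The ranges of Asb17os and Gt(ROSA)26Sor overlap between the libraries, while the 3 genes above them stand apart from each other and from these.

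The rank by TPM is not the rank by reads, because TPM divides by the effective length, the number of positions at which a fragment can start. Rab26os had an effective length of 88.6 bases in replicate 2 and 90.9 in replicate 1, and 937 expected counts in replicate 2 and 765 in replicate 1. Tug1, a long noncoding RNA that is broadly expressed in mammalian tissues, had an effective length of 4533 bases in replicate 2 and 4580 in replicate 1 and the most counts of the 77 genes, 9134 in replicate 2 and 5252 in replicate 1, at 11.2 TPM in replicate 2 and 9.25 in replicate 1. Snhg9, a host gene of a small nucleolar RNA, stood sixth with 27.3 TPM in replicate 2 and 9.41 in replicate 1. It rested on 18 expected counts in replicate 2 and 5 in replicate 1 over an effective length of 3.67 bases in replicate 2 and 4.29 in replicate 1, so that 3 counts, the upper limit a count of 0 allows, are worth 4.55 TPM in replicate 2 and 5.65 in replicate 1 there. Such limits and all intervals here cover counting error only.

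Of the remaining genes of the 10 highest, Gm14198 lies inside the zinc finger gene Zfp341 and had 14.3 TPM in replicate 2 and 12.1 in replicate 1. F630028O10Rik, on the X chromosome with no coding gene opposite, had 12.0 TPM in replicate 2 and 10.5 in replicate 1. Rab10os had 9.21 TPM in replicate 2 and 11.6 in replicate 1, and 1600020E01Rik had 10.6 TPM in replicate 2 and 9.98 in replicate 1. Gm14198 was above the other 3 in both libraries, whose ranges overlap one another.

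**Figure D1:**
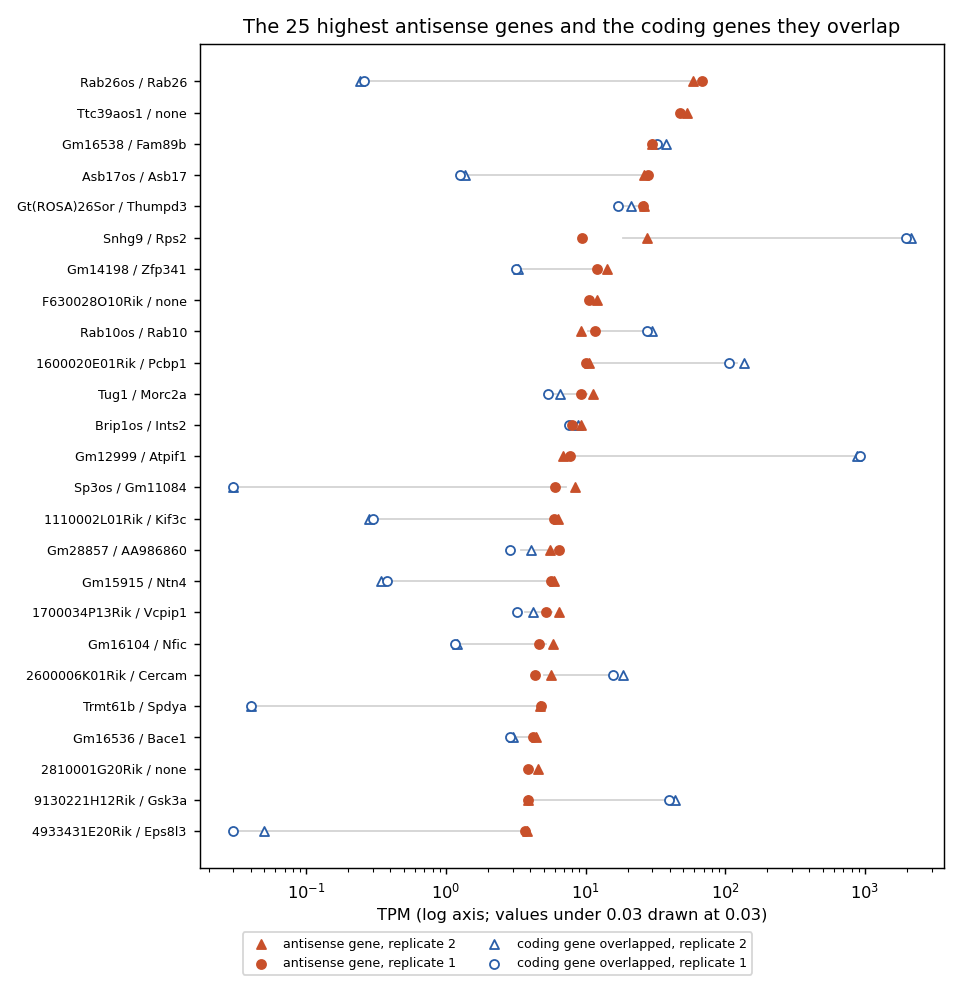
TPM on a log axis (x) of the 25 highest antisense genes (filled) and of the coding gene that each overlaps (open), as antisense / coding down the page, with triangles for replicate 2 and circles for replicate 1. Rab26os stands far to the right of Rab26, while Snhg9 and Gm12999 stand far to the left of Rps2 and Atpif1.

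Of the 77 genes, 69 overlap a measured coding gene on the other strand, and 8 overlap none. Where several coding genes were overlapped, as in 13 cases, the one with the longest overlap was taken. This gave 68 coding genes, since Gm15265 and A730011C13Rik both lie inside Pi4kb, which encodes a lipid kinase. For Igf2os and Gm16538 an annotated gene without a value overlaps further than the one used.

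The coding genes opposite were mostly expressed. Their median level over the 69 pairs was 6.35 TPM, and 54 of the 68 distinct genes, or 79.4%, reached 1 TPM in both libraries. That share was 53.8% for coding genes opposite the other measured antisense genes and 50.6% for all coding genes. At least 10 TPM was reached by 35.3% of the 68, against 18.4% of coding genes opposite the other antisense genes. The rule did not use the coding genes' values, though both genes of a pair lie in the same DNA and were read in the same libraries, and the difference in shares was not tested.

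The antisense gene was at or above its coding gene in mean TPM in 26 of 69 pairs, or 37.7%, against a background of 4.96% over all 1853 measured antisense genes with a coding partner. The rule sets a lower limit on the antisense side, so nothing is read from that contrast. In 13 of the 26 pairs the coding gene was under 1 TPM in both libraries, and in 12 it reached 1 TPM in both. In 14 pairs the coding gene was at least 10-fold higher. The median log2 ratio of antisense over coding, with 0.1 TPM added to each, was -1.27 for the mean of the libraries and -1.24 in each. It was -3.53 over 1784 other antisense genes. Over pairs whose antisense gene reached 2 TPM in both libraries the median was 0.15, so its sign depends on the minimum. Across the 69 pairs, which share 2 libraries, antisense and coding levels were nearly uncorrelated (Pearson r 0.00, Spearman rho -0.07). Because the rule cut antisense levels at 1 TPM, no lack of relation among antisense genes at large is read from these values.

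**Figure D2:**
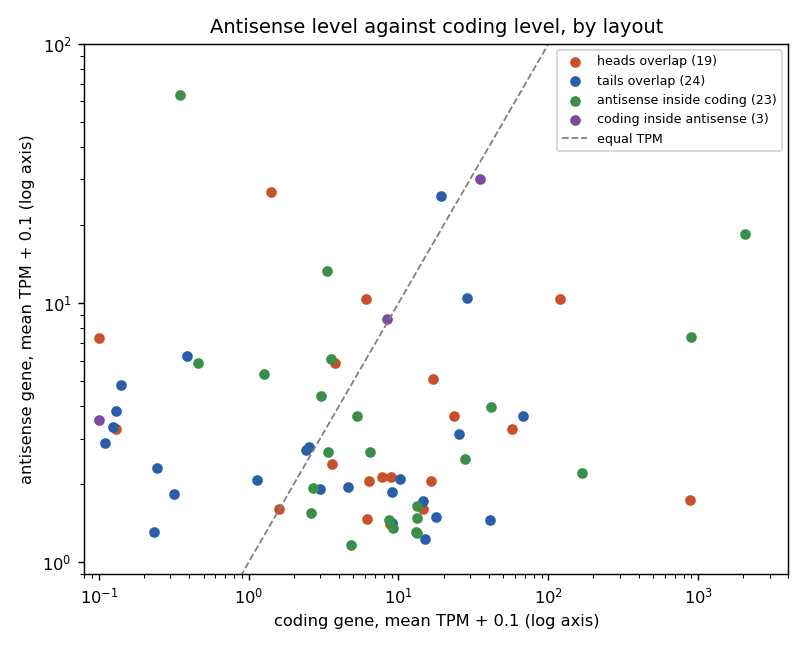
Mean TPM plus 0.1 of the antisense gene (y) against that of the coding gene it overlaps (x), both on log axes, for 69 pairs coloured by layout. The 26 pairs with the antisense gene at or above the coding gene lie on or to the left of the dashed line of equal TPM, and coding genes cover a far wider range than the antisense genes.

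Pairs in which the antisense gene was far above the coding gene were mostly pairs with a nearly silent coding gene. The median antisense level was 2.57 TPM, so a coding gene far below its antisense gene is nearly always close to 0. Ranking by the ratio thus fixed most of this, and nothing further is read from it. Rab26os had 58.9 TPM in replicate 2 and 67.9 in replicate 1, against 0.24 TPM in replicate 2 and 0.26 in replicate 1 for Rab26, so that Rab26os was 253-fold higher in mean TPM. With 0.1 TPM added to both genes the log2 ratio was 7.50 ± 0.09 (SD, n = 2). Rab26 was covered by 45.0 expected counts in replicate 2 and 34.0 in replicate 1, and the 2 genes share no exonic base. Asb17os had 26.0 TPM in replicate 2 and 27.7 in replicate 1, against 1.37 TPM in replicate 2 and 1.26 in replicate 1 for Asb17, an ankyrin repeat gene known for its expression in testis, and Asb17os was 20.4-fold higher in mean TPM. The gap was smaller in expected counts, which do not divide by length. Asb17os held 1285 in replicate 2 and 959 in replicate 1, against 576 in replicate 2 and 366 in replicate 1 for Asb17.

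Several of these coding genes are known from germ cells. Tmem147os had 3.40 TPM in replicate 2 and 3.46 in replicate 1, and the gene that lies inside its span, Gapdhs, the sperm form of a glycolytic enzyme, was listed at 0 in both. The gene that the annotation names Trmt61b had 4.68 TPM in replicate 2 and 4.80 in replicate 1, against 0.04 TPM in each library for Spdya, an activator of cyclin-dependent kinases in meiosis, on 12.0 expected counts in replicate 2 and 9.00 in replicate 1. Gm10501 had 1200 expected counts in replicate 2 and 753 in replicate 1, against 10.1 in replicate 2 and 5.01 in replicate 1 for Hspa1l, an Hsp70 chaperone of testis. Germ cell genes were not a fixed list and were singled out after their values were seen.

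In the others of the 10 highest ratios the coding gene overlapped furthest was likewise low, as the ranking by ratio favours. Sp3os had 8.35 TPM in replicate 2 and 6.06 in replicate 1, while Gm11084 opposite was listed at 0 in both. 4933431E20Rik had 3.80 TPM in replicate 2 and 3.66 in replicate 1 against 0.05 TPM in replicate 2 and 0.01 in replicate 1 for Eps8l3. 6330418K02Rik had 2.67 TPM in replicate 2 and 2.89 in replicate 1, against 0.00 TPM in replicate 2 and 0.02 in replicate 1 for Gal3st4, a sulfotransferase of glycans. Gm15879 had 3.68 TPM in replicate 2 and 2.66 in replicate 1, against 0.03 TPM in each library for Dnase1, a secreted DNA-cutting enzyme. 1110002L01Rik had 6.31 TPM in replicate 2 and 5.94 in replicate 1, against 0.28 TPM in replicate 2 and 0.30 in replicate 1 for Kif3c, a kinesin motor subunit. With coding genes this close to 0, the size of each ratio depends on the 0.1 TPM added. Over fewer bases, Sp3os also overlaps Sp3, with 20.96 TPM in replicate 2 and 18.2 in replicate 1. Likewise 4933431E20Rik overlaps Gstm5, with 112.5 TPM in replicate 2 and 107.9 in replicate 1. Also 1110002L01Rik overlaps Asxl2, with 7.27 TPM in replicate 2 and 6.84 in replicate 1. Each of these further coding genes stood above its antisense gene in both libraries.

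At the other end stood antisense genes opposite very abundant coding genes. Igf2os had 1.63 TPM in replicate 2 and 1.64 in replicate 1, against 894 TPM in replicate 2 and 857 in replicate 1 for Igf2, the imprinted fetal growth factor (log2 ratio with 0.1 TPM added -8.98 ± 0.05, SD, n = 2, and likewise for the ratios that follow). Igf2os held 1233 expected counts in replicate 2 and 899 in replicate 1, and 93.9% of its TPM came from 1 transcript. Snhg9, with 27.3 TPM in replicate 2 and 9.41 in replicate 1, lies inside the annotated span of Rps2, a protein of the small ribosomal subunit with 2119 TPM in replicate 2 and 1969 in replicate 1 (log2 ratio -6.98 ± 1.00). Gm12999 had 6.88 TPM in replicate 2 and 7.73 in replicate 1, against 874 TPM in replicate 2 and 924 in replicate 1 for Atpif1, an inhibitor of the mitochondrial ATP synthase that is known for a role in heme synthesis (-6.93 ± 0.06). Gm17092 had 1.36 TPM in replicate 2 and 2.85 in replicate 1, against 168 TPM in replicate 2 and 169 in replicate 1 for Hnrnpd, an RNA-binding protein of mRNA decay (-6.34 ± 0.71). 2610020C07Rik had 1.47 TPM in replicate 2 and 1.23 in replicate 1, against 40.4 TPM in replicate 2 and 40.9 in replicate 1 for Gspt1, a translation termination factor (-4.82 ± 0.18). 1600020E01Rik had 10.6 TPM in replicate 2 and 9.98 in replicate 1, against 135 TPM in replicate 2 and 106 in replicate 1 for Pcbp1, an RNA-binding protein that also carries iron and the fifth coding gene over 100 TPM.

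Antisense counts were also set beside the counts of abundant coding genes on the other strand, both over the whole gene and not over the shared bases alone. This was done for 54 measured antisense genes with at least 100 exonic bases over a coding gene of at least 10000 expected counts in each library. Antisense counts were a median of 0.0612% of the coding counts, and 18 of the 54 were under 0.01%. The 6 of the 77 genes among them held 0.445% (Gm17092 over Hnrnpd), 0.650% (Gm12999 over Atpif1), 0.854% (Gm15491 over Mgea5, an enzyme that removes sugar from proteins), 4.54% (2610020C07Rik over Gspt1), 5.97% (9130221H12Rik over Gsk3a, a kinase of glycogen metabolism) and 26.1% (Rab10os over Rab10). All 6 were above the median of the 54, and the rule chose them by level. Rab10os shares 143 exonic bases with Rab10, while its highest transcript has 4006 bases, so these shares do not compare the strands over the same bases. The part of wrongly stranded reads in any single gene was not tested.

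The pairs were sorted into 4 layouts by their GENCODE gene spans, which the rule did not use. Pairs overlapping at their 3′ ends, or tails, numbered 24, or 34.8%, against 15.5% of pairs of other antisense genes. Pairs overlapping at their 5′ ends, or heads, numbered 19, or 27.5%, against 23.2%. The antisense gene lay inside the coding gene in 23 pairs, or 33.3%, against 57.7%, and the coding gene lay inside the antisense gene in 3, or 4.35%, against 3.53%. Exons of the pair overlapped in 60 of 69, by a median of 287.5 bases and at most 5142 bases, in A630072M18Rik over Rsbn1l.

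The median antisense level was 2.29 TPM for overlapping heads, 2.10 TPM for overlapping tails and 2.57 TPM for antisense genes inside coding genes, while the coding medians in the same order were 7.61 TPM, 3.70 TPM and 6.35 TPM. In the 3 pairs with the coding gene inside, the medians were 8.58 TPM for antisense and 8.23 TPM for coding genes. The antisense gene was at or above the coding gene in 12 of 24 pairs with overlapping tails, in 6 of 19 with overlapping heads, in 6 of 23 with the antisense gene inside, and in 2 of 3 with the coding gene inside. The differences among layouts were not tested.

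The starts of the pairs lay within 1000 bases in 13 of 69, or 18.8%, against a background of 12.4%. Overlap alone misses antisense genes whose start faces away from a coding start with a gap between them. After the data were seen, the nearest coding start on the other strand was therefore found for each gene, whether or not the genes overlap. It lay within 1000 bases for 40 of 77 antisense genes, or 51.9%, against 21.4% of 1982 other measured antisense genes. The spans overlapped in 19 of the 40 and were apart in 21, and the median distance among the 40 was 103 bases. Within 100 bases there were 20 of the 77, or 26.0%, against 3.58% of the others.

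**Figure D3:**
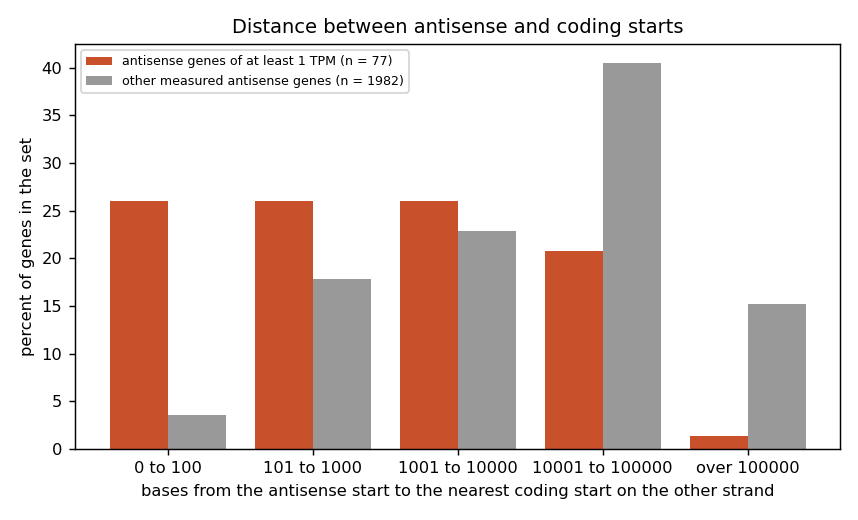
Percent of genes (y) by distance in bases from the antisense start to the nearest coding start on the other strand (x), for the 77 antisense genes of at least 1 TPM and for 1982 other measured antisense genes. The share at 0 to 100 bases was 26.0% in the 77 genes and 3.58% in the others, and over 100000 bases it was 1.30% in the 77 genes and 15.2% in the others.

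The coding genes at these 40 starts were expressed in 39 cases at 1 TPM or more in both libraries, with a median of 12.2 TPM, while the antisense median was 2.64 TPM. The exception was Dnase1. The antisense gene was at or above the coding gene in 8 of the 40. None of these values was taken for the other antisense genes, so nothing particular to the 77 is read from them. The antisense windows of these 40 had a median ratio of observed to expected CpG of 0.857 (20 windows in RefSeq), and the coding windows 0.833 (35 windows). Windows of starts this close can share bases, and CpG reads the same on both strands, so the medians are not independent. Several of these coding genes serve division and basic cell machinery, and they were picked after their values were seen. AV099323 had 1.53 TPM in replicate 2 and 1.29 in replicate 1, against 398 TPM in replicate 2 and 376 in replicate 1 for Pcna, the sliding clamp of DNA replication, whose start lies 43 bases away. Gm11457 had 3.29 TPM in replicate 2 and 2.78 in replicate 1, against 456 TPM in replicate 2 and 365 in replicate 1 for Ube2c, which hands ubiquitin to mitotic cyclins and starts 232 bases away. Mrps21, of the mitochondrial ribosome, starts 3 bases from C920021L13Rik, and Lsm2, of the spliceosome, starts 74 bases from Gm10501.

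For several of the highest antisense genes the nearest coding start belonged to a gene other than the one overlapped furthest. Rab26os, with 58.9 TPM in replicate 2 and 67.9 in replicate 1, starts 310 bases from Traf7, a ubiquitin ligase with 61.1 TPM in replicate 2 and 56.2 in replicate 1, so the order of the 2 genes differed between the libraries. Gt(ROSA)26Sor starts 32 bases from Setd5, a chromatin regulator with 12.7 TPM in replicate 2 and 10.5 in replicate 1, and overlaps Thumpd3 only at its tail. 4933431E20Rik overlaps Eps8l3 furthest but starts 392 bases from Gstm5, a glutathione transferase with 113 TPM in replicate 2 and 108 in replicate 1, by GENCODE starts. Gm16538 starts 889 bases from Ehbp1l1. For Tug1 the nearest coding start, 482 bases away by GENCODE starts, was that of the gene it overlaps, Morc2a, an ATPase of gene silencing. By the RefSeq starts of the windows above, Tug1 and Morc2a face away from each other, 623 bases apart, and do not overlap. Their overlap and layout thus rest on the GENCODE start of Tug1. Tug1 had 11.2 TPM in replicate 2 and 9.25 in replicate 1, against 6.56 TPM in replicate 2 and 5.39 in replicate 1 for Morc2a.

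Antisense genes named after a coding gene carry its symbol followed by os, for opposite strand, and 17 of them had a value for the named gene. Their spans overlap in 11 and are apart in 6, by 38 to 467 bases, in Tmem147os, Atad3aos, Etaa1os, Map2k3os, Brip1os and Ttc39aos1. Starts lay within 1000 bases in 9. The antisense gene was at or above the named gene in 5. These were Rab26os, Asb17os, Ttc39aos1, Brip1os and Zfhx2os. Ttc39aos1 had 52.8 TPM in replicate 2 and 47.4 in replicate 1, against 11.9 TPM in replicate 2 and 8.43 in replicate 1 for Ttc39a. Brip1os had 9.18 TPM in replicate 2 and 7.98 in replicate 1 against 3.27 TPM in replicate 2 and 3.04 in replicate 1 for Brip1, a helicase of DNA repair. Zfhx2os had 1.72 TPM in replicate 2 and 1.76 in replicate 1 against 0.26 TPM in replicate 2 and 0.18 in replicate 1 for Zfhx2, a homeobox gene.

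Transcription factors were among the named genes on the lower-antisense side. Prox1os had 2.24 TPM in replicate 2 and 2.34 in replicate 1, against 3.64 TPM in replicate 2 and 3.32 in replicate 1 for Prox1, a factor needed for liver growth. Zeb2os had 2.56 TPM in replicate 2 and 2.57 in replicate 1 against 6.05 TPM in replicate 2 and 6.65 in replicate 1 for Zeb2, a repressor active in blood stem cells. Sp3os had 8.35 TPM in replicate 2 and 6.06 in replicate 1 against 20.96 TPM in replicate 2 and 18.2 in replicate 1 for Sp3, a broadly expressed factor. Zfp335os had 2.22 TPM in replicate 2 and 1.84 in replicate 1, against 7.94 TPM in replicate 2 and 7.28 in replicate 1 for Zfp335, and these antisense levels stood below the coding levels in both libraries.

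In the other named pairs, too, the antisense gene was the lower. Rab10os had 9.21 TPM in replicate 2 and 11.6 in replicate 1 against 29.6 TPM in replicate 2 and 27.3 in replicate 1 for Rab10, a GTPase of membrane traffic. Tmem147os had 3.40 TPM in replicate 2 and 3.46 in replicate 1 against 53.4 TPM in replicate 2 and 47.6 in replicate 1 for Tmem147, of the endoplasmic reticulum membrane. Atad3aos had 2.92 TPM in replicate 2 and 1.49 in replicate 1 on 58.0 expected counts in replicate 2 and 37.0 in replicate 1, against 39.1 TPM in replicate 2 and 35.9 in replicate 1 for Atad3a, a mitochondrial ATPase. Etaa1os had 1.62 TPM in replicate 2 and 1.83 in replicate 1 against 5.12 TPM in replicate 2 and 4.65 in replicate 1 for Etaa1, an activator of the ATR kinase. Map2k3os had 1.51 TPM in replicate 2 and 1.76 in replicate 1, against 47.1 TPM in replicate 2 and 29.5 in replicate 1 for Map2k3, a kinase upstream of p38, and the coding gene varied more between the libraries than its antisense gene did.

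The libraries were then compared for each antisense gene. The ratio of replicate 2 over replicate 1 was taken on expected counts with TMM-scaled library sizes and given exact binomial 95% intervals. Of 75 genes with at least 100 expected counts in total, 1 was at least 2-fold apart, against a background of 2.46% of 14527 genes at that depth, and 72, or 96.0%, were within 1.5-fold, against 94.2% of all genes. Both shares are near those over all genes. The median absolute log2 ratio was 0.17 for the 75 genes, against 0.11 for all genes and 0.18 for all genes of 100 to 3000 expected counts, the depth of most of the 75. Snhg9, with under 100 counts, was at 1.18 with a counting interval of -0.31 to 2.96. No gene was 2-fold higher in replicate 2, against 0.289% of all genes, and 1 was 2-fold higher in replicate 1, against 2.17%. Among all genes of 100 to 3000 expected counts, 5.29% were 2-fold apart. The gene that differed was Gm17092, with 117 expected counts in replicate 2 and 170 in replicate 1, a log2 ratio of -1.21 (95% counting interval -1.56 to -0.86), while Hnrnpd opposite it was at -0.25. Counting intervals excluded 0 for 31 of the 75, 15 of them with the larger value in replicate 2 and 16 in replicate 1. No such share was taken over all genes, so nothing particular to antisense genes is read from that count. With 1 group, such ratios measure the spread between the libraries and nothing else.

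Shifts of antisense and coding genes between the libraries showed little relation. Over the 58 pairs with at least 100 expected counts on both genes, the library ratios correlated weakly (Pearson r 0.07, Spearman rho 0.04), a description across pairs that share both libraries. The ratios of both genes spanned a narrow range.

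**Figure D4:**
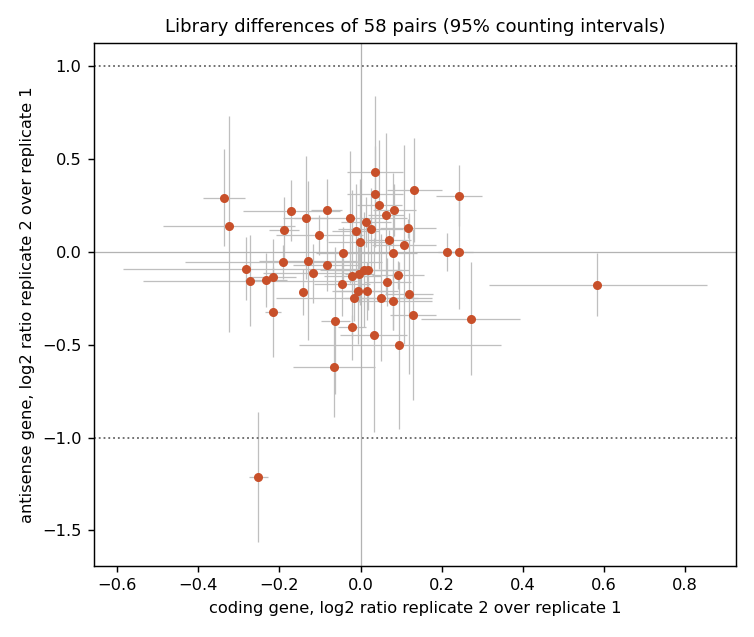
The log2 ratio of replicate 2 over replicate 1 of the antisense gene (y) against that of the coding gene (x) for 58 pairs, with 95% counting intervals as bars and dotted lines at 2-fold. The point below the lower dotted line is Gm17092 at -1.21, and the others lie within 2-fold.

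Splice junction reads on the older mm9 assembly gave a readout of strand that the rule did not use, though from the same libraries. Of the 77 genes, 56 had an mm9 entry, all on the same strand, and 50 of them, or 89.3%, had at least 1 junction on their own strand with 2 or more reads in each replicate. The share was 10.1% of 1420 other antisense genes, which were lower in level by the rule. The 50 genes held 178 junctions with 7356 reads in the replicate listed as R1 and 10935 in that listed as R2. Among the junctions, 133 had the length of an annotated intron, and they held 88.2% of R1 reads and 87.2% of R2 reads. The mm9 table does not tie R1 and R2 to the 2 libraries by name. Levels on mm9 were lower than on mm10. The median ratio of mm9 RPKM over mm10 FPKM, both scaled by length and depth, was 0.14 over the 56 genes (Spearman rho 0.79). The cause was not tested, and the junction reads are read for strand and splicing only, not for level.

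Ttc39aos1 had the most junction reads, 1436 in R1 and 2105 in R2 over 8 junctions, and its most read junction, printed above, had 856 in R1 and 1255 in R2. Gm15915 followed with 535 reads in R1 and 826 in R2, although its most read junction matched no annotated intron length. Rab10os had 581 reads in R1 and 696 in R2 over 10 junctions, Asb17os had 394 in R1 and 592 in R2, and Tug1 had 325 in R1 and 572 in R2. Snhg9, which rested on 23 expected counts, had 178 junction reads in R1 and 184 in R2 over its 1 junction. Igf2os had 218 in R1 and 306 in R2, all on annotated intron lengths. Gm17092, the gene that differed between the libraries, had 4 reads in R1 and 3 in R2. Its mm9 level was 0.238 RPKM in the first of the table's replicate columns and 0.800 RPKM in the second.

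**Figure D5:**
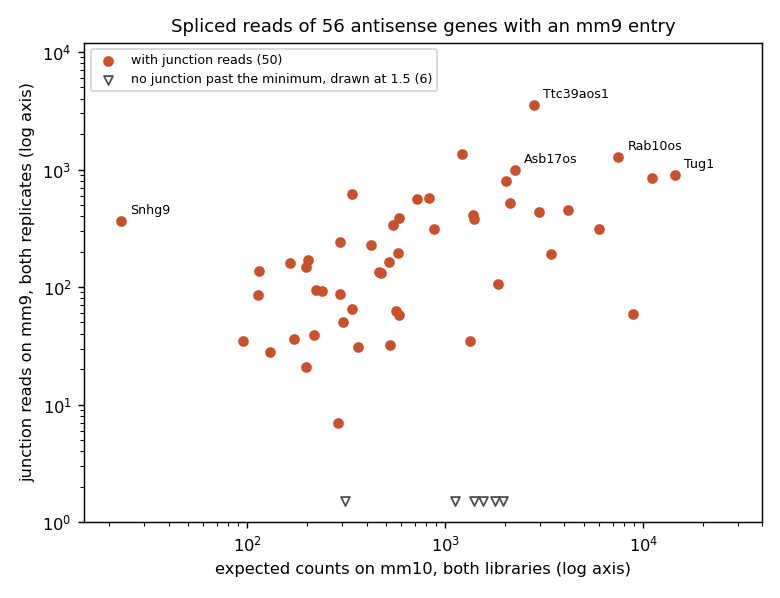
Junction reads on mm9 of both replicates together (y) against expected counts on mm10 of both libraries together (x), on log axes, for the 56 antisense genes with an mm9 entry. Ttc39aos1 has the most junction reads at 3541, Tug1 has the most counts, Snhg9 stands apart at the left with 362 junction reads on 23 counts, and 6 genes without junction reads are drawn as open triangles.

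Most of the genes have more than 1 annotated transcript. Among the 47 that do, the highest transcript was the same in both libraries in 43, and it held a median of 70.8% of the gene's TPM. Of the Tug1 TPM, 76.0% came from a transcript of 4720 bases. In Rab10os the highest of 7 transcripts held 53.4%. In Ttc39aos1 a transcript of 333 bases held 85.0% of the TPM. Single-exon genes were 8 of the 77, or 10.4%, against 4.28% of other antisense genes.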

How the data were processed

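Polyadenylated RNA was sequenced from 2 libraries of 1 group. The expected counts, TPM and FPKM values of mm10 genes and transcripts were deposited by the authors with the GENCODE M4 annotation, per the file headers and labels; neither aligner nor quantifier is given in the sources used here. The posterior SD of each count, a score deposited by the authors, was above 0 for 3 members. The mm9 junction counts and the RPKM values of ENSEMBL genes were deposited for replicates not tied to library names.

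The members and lists were chosen with earlier results of these data known. Gene types, spans and exons came from GENCODE M21 on GRCm38, matched by gene identifier; mm9 positions were not converted. The partner is the protein-coding gene with a value and the longest overlap, at least 1 base, on the other strand. Log2 ratios used 0.1 TPM as pseudocount. Library ratios used rounded expected counts and TMM sizes (edgeR 4.0.16), with exact Clopper-Pearson 95% intervals covering counting error only, and were tested on simulated data. Genes with at least 100 counts and at least 2-fold apart were called. Named genes were the 10 highest, the 10 highest and 5 lowest ratios, members called apart, the 15 highest named after a coding gene, the 5 with most junction reads, 3 genes on each side of the threshold, and partners over 100 TPM; others were named after their values were seen. Promoters came from RefSeq on GRCm38.p6. Alternatives were DESeq2 1.42.0 size factors, library totals, other units, minimums, windows and partners, and each replicate left out. Tables were handled in Python 3.11.15 (pandas 2.3.3, numpy 2.4.6), intervals in scipy 1.17.1, plots in matplotlib 3.10.9 and scaling in R 4.3.3.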

Additional observations from a re-analysis of the deposited data

How the results depend on the processing

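With 1 group of 2 libraries no difference between conditions could be tested, and depth limits the 16 antisense genes under 100 counts in either library. No paired analysis was possible because the 2 libraries form 1 group. Antisense genes passing the minimum numbered 77, against 133 at 0.5 TPM and 42 at 2 TPM, and 81 to 85 with each replicate left out. Antisense at or above coding was counted in 26 pairs, against 16 in expected counts, which do not divide by length, and 25 to 25 with each replicate left out. With the most abundant coding gene overlapped, the count was 22. The median log2 ratio of antisense over coding, -1.27, turned to 0.15 for members of at least 2 TPM, and was -0.54 for the 55 pairs with at least 100 antisense counts in each library (chosen after seeing the data). It was -1.04 with a pseudocount of 1 TPM, -1.30 with 0.01 TPM, -1.28 in FPKM, -2.83 in expected counts, -1.63 with the most abundant coding gene overlapped, -1.45 where exons overlap, and -1.24 to -1.24 with each replicate left out. Members 2-fold apart between the libraries numbered 1, against 2 at a minimum of 10 counts or with none, and 3 at 1.5-fold. Starts of pairs within 500 bases numbered 8, against 13 within 1000. Junction reads were found in 50 genes, and in 50 to 51 with each replicate left out. The cause of these shifts was not tested. Coding starts within 1000 bases, 40, numbered 34 within 500 bases, 47 within 2000 bases and 30 of the 61 members with at least 100 counts in each library, all chosen after seeing the data.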
